A study of Mus musculus with 4 samples.

Results

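The genes described here are 41 imprinted genes of the mouse, taken from a fixed list, out of 34568 annotated genes, coding or long non-coding. Of the 41, 34 encode proteins and 7 are long non-coding RNA genes (Meg3, Rian, Mirg, Peg13, Kcnq1ot1, H19 and Airn), and they lie in 17 loci. H3K27ac, a histone acetylation that marks active promoters and enhancers, was mapped by chromatin immunoprecipitation sequencing. The tissue was left cerebral cortex from female adults, aged 2 months, of the strain B6CASTF1/J, a first-generation hybrid of C57BL/6J and CAST/EiJ. The 4 samples are 2 pools, I and J, each made from 4 biosamples and sequenced as 2 technical libraries. All samples share strain, sex, age and tissue, and none is a treated or untreated control, so no contrast was tested. A peak of the replicated list of both pools that overlapped the 1 kb on either side of a transcription start site (TSS) was taken as a promoter peak, and the list of each pool alone was read beside it.

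Imprinted genes are expressed mainly or only from the copy inherited from 1 parent. Most lie in clusters under an imprinting control region, a stretch that is methylated in the egg or in the sperm and keeps that mark on 1 parental copy after fertilisation. ZFP57, a zinc finger protein that binds a methylated hexamer, TGCCGC, helps to keep that methylation in the embryo. In brain the imprinted genes are known for roles in growth, feeding, maternal care and neuronal signalling, and Ube3a is imprinted in neurons. The lists are not resolved by allele, so the parental copy or copies that carry a peak cannot be told. A peak therefore shows that at least 1 copy carries the mark in some of the cells, and a parental class named below is background knowledge, not a measurement.

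The promoter stretches below are shown because they hold more than 1 copy of the ZFP57 hexamer. Only stretches of 160 bases outside annotated exons were searched, and the others found in promoter peaks of the set held at most 1. The Grb10 peak, with 4 matches within 150 bp of its summit, gave no such stretch, and the Impact peak was not searched. Each printed stretch has 160 bases and lies outside annotated exons. All are written 5′ to 3′ on the strand of the gene, with TGCCGC or its reverse complement GCGGCA in capitals. They were read from GRCm38.p6, the sequence of mm10. The first lies in the start region that Peg3 and Usp29 share (chr7:6730050-6730209, minus strand) and holds 3 matches. The second lies in the Snrpn and Snurf promoter peak (chr7:60004393-60004552, minus strand) with 2 matches. The third lies upstream of the main Mest start (chr6:30737571-30737730, plus strand) with 2 matches, and the fourth at the internal Inpp5f promoter (chr7:128687907-128688066, plus strand) with 3.
Peg3 and Usp29: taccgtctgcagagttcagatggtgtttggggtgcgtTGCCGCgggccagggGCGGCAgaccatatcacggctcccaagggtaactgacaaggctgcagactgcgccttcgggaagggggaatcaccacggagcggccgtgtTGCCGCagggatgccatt
Snrpn and Snurf: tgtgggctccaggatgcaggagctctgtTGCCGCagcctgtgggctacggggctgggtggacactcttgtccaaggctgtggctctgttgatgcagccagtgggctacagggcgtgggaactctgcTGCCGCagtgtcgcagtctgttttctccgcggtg
Mest: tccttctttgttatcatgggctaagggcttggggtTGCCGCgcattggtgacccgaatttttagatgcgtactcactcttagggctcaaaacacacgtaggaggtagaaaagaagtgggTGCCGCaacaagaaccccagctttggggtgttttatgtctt
Inpp5f internal promoter: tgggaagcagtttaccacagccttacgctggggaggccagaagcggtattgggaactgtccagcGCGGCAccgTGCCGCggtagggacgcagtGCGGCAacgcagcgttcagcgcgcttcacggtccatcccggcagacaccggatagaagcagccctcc

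A promoter peak was present at 27 of the 41 genes in the replicated list. Among the 34 coding genes 23 had one (67.6%), where 58.5% of all 21755 coding genes did. Among the 7 non-coding genes 4 had one (57.1%), where 25.9% of all 12813 long non-coding genes did. The pool I list gave 22 coding and 4 non-coding genes, beside 58.2% and 26.5% of all genes of each class. The pool J list gave 22 and 3, beside 55.2% and 22.1%. In both pool lists 22 coding and 3 non-coding genes were marked, beside 54.7% and 21.8%. With only peaks of −log10 q 5 or more, the replicated list gave 21 and 3, beside 54.8% and 21.9%. Each of the 7 non-coding genes is a large part of its share, and no test was made of any of these shares. By parental class, 14 of 21 paternally expressed genes and 9 of 16 genes maternally expressed in some tissue, not always brain, had a promoter peak. All 4 genes whose imprint depends on isoform or tissue had one. These classes mix coding and non-coding genes, for which the shares of all genes were 58.5% and 25.9%. Some of the 14 paternally expressed genes share a peak with another of them.

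**Figure D1:**
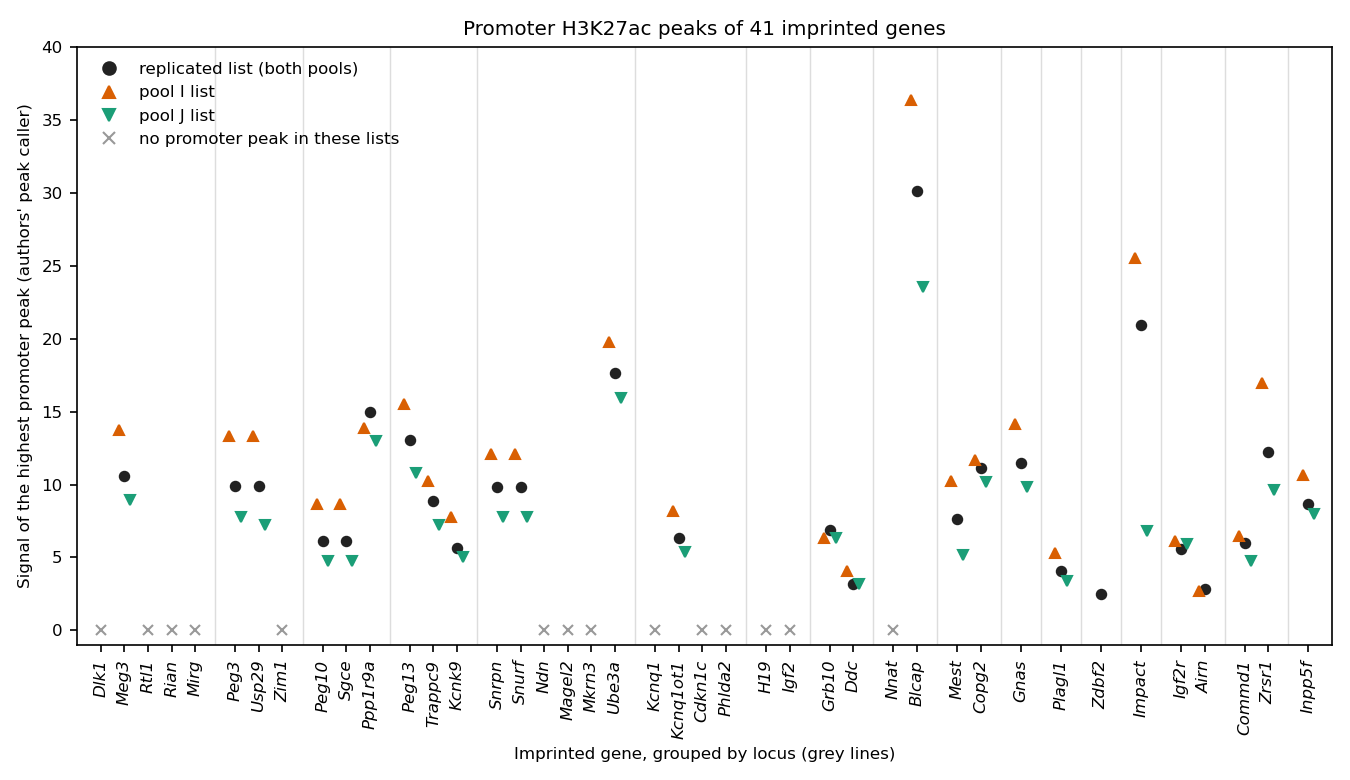
Signal of the highest promoter peak (vertical axis, units of the authors' peak caller) of each of the 41 genes, grouped by locus, in the replicated list (circles), the pool I list (upward triangles) and the pool J list (downward triangles); crosses are genes with no promoter peak. Blcap stands highest at 30.1 in the replicated list, and 14 genes have crosses.

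Signal is the value given by the authors' peak caller, and it was used only to rank peaks inside a list. The highest promoter peaks of the 27 marked genes ran from a signal of 2.47 to 30.1 with a median of 8.86, where the median over all 16040 marked genes was 8.50. Their median percentile among those marked genes was 52.5, and 6 genes stood at or above percentile 75 while 4 stood under 25. The marked imprinted genes thus covered nearly the whole range of promoter signal, from percentile 1.00 at Zdbf2 to 99.8 at Blcap. Their 39 distinct promoter peaks included 4 that lay near starts of 2 genes of the set. Of the 39, 36 overlapped a peak of the pool I list, 33 one of pool J and 32 both (82.1%), beside 82.2% of all 19727 promoter peaks. The spread between pools is known only from these 2 lists, and the signals of different lists are set side by side without a scale that joins them.

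The highest signal of the set was at Blcap, which encodes a small membrane protein and is expressed from the maternal copy in brain. Its promoter peak had a signal of 30.1 in the replicated list, 36.4 in pool I and 23.5 in pool J, at percentiles 99.8, 99.8 and 99.7 of the marked genes. Nnat, a paternally expressed gene for the small proteolipid neuronatin, lies inside a Blcap intron. It has 8 annotated TSSs and no promoter peak in any list, and the nearest peak was the Blcap peak at 5499 bp. The 2 genes of this locus were thus on opposite ends of the set, and no distal peak lay between them. Nnat was also the 1 gene without a promoter peak among the 17 at maternally methylated germline control regions, of which 16 had one. These 16 include 3 pairs that share a peak (Peg3 and Usp29, Peg10 and Sgce, Snrpn and Snurf), and 12 were marked when only the 5′ end of each gene was used. With every TSS used, 11 of the other 24 genes of the set were marked. The shares of all genes were then 58.5% for coding and 25.9% for non-coding ones. Shares at the 5′ end alone were not computed.

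Impact, which encodes a regulator of protein synthesis control by GCN2, was second. Its promoter peak had a signal of 20.9 in the replicated list and 25.5 in pool I. The pool J list divided this region: it held 2 peaks, of which the one at the TSS had a signal of 6.81 and the other, 1475 bp from the TSS, 16.0. The percentile of Impact among marked genes was therefore 97.3 in the replicated list, 97.7 in pool I and 41.2 in pool J, where the peak of 16.0 lay outside the 1 kb window. The summit of the replicated peak lay 1710 bp downstream of the TSS. The locus also held 2 distal peaks, the higher with a signal of 8.56 in the replicated list, 9.41 in pool I and 7.61 in pool J. That peak covers the annotated 5′ end of the Impact gene, and it counts as distal because the basic transcripts have no TSS there.

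In the Snrpn locus, the region deleted in Prader-Willi and Angelman syndromes in people, Ube3a, a ubiquitin ligase gene expressed from the maternal copy in neurons, had the third highest signal of the set. Its promoter peak, 3153 bp wide, had a signal of 17.6 in the replicated list, 19.8 in pool I and 15.9 in pool J. Snrpn and Snurf, which share a promoter and encode a splicing protein and a small upstream reading frame, shared 1 peak of 9.85, 12.1 and 7.79 in the same lists. Snrpn has a further TSS 135108 bp upstream of that one, and it had no peak. Ndn, Magel2 and Mkrn3, which lie at the far end of the locus and encode 2 proteins of the MAGE family and a zinc finger protein, had no promoter peak. Their nearest peak was the same for all, at chr7:62348340-62348733 with a signal of 4.86, which lay 1771 bp, 28277 bp and 71406 bp from their starts. That peak overlaps the annotated body of Ndn, and it appeared in the pool I list with 6.55 but not in pool J.

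The Snrpn locus spans 3191 kb and held 22 distal peaks or 0.689 per 100 kb, all of them from Snrpn up to and including Ndn. Of these, 13 lay in 2 long non-coding genes, 10 in A230057D06Rik and 3 in A330076H08Rik. The highest, at chr7:61789757-61791553 in an intron of A230057D06Rik, had a signal of 7.62, with 8.84 in pool I and 6.40 in pool J. The distal peaks of this locus were few for its length and clustered in those transcripts.

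In the Dlk1-Meg3 locus, a growth and metabolism cluster controlled by a paternally methylated region, 1 of 5 genes had a promoter peak. Meg3, a maternally expressed long non-coding RNA, had 2 peaks at its start, the higher with a signal of 10.6 in the replicated list, 13.7 in pool I and 8.91 in pool J. Its 2 internal TSSs had none. Dlk1, which encodes a Notch-like membrane protein, was 58930 bp from its nearest peak, although its start was CpG-rich. Rtl1, a retrotransposon-derived gene, and the non-coding Rian and Mirg, which host small RNAs, were 43820 bp, 47430 bp and 8390 bp from theirs. The highest distal peak spanned the 3′ end of Mirg at chr12:109748790-109750676, with 5.04, 6.09 and 5.16 in the replicated, pool I and pool J lists. The peaks of this locus lay at the Meg3 start and around the end of Mirg, except 1 of 3.07 in a Meg3 intron. That one was the nearest peak of Rtl1 and Rian. All 5 distal peaks of the locus were found in pool I, but only the highest was found in pool J.

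In the Peg3 locus, Peg3, a zinc finger gene known for roles in growth and maternal behaviour, and Usp29, a deubiquitinase gene, are transcribed from opposite strands of 1 start region. The peak at chr7:6729705-6730423 served both, with a signal of 9.92 in the replicated list and 13.4 in pool I. In pool J the highest peak within reach of Peg3 was another, of 7.79, and that within reach of Usp29 was 7.24. Zim1, the maternally expressed zinc finger gene downstream, had no promoter peak and lay 31089 bp from the nearest one. That nearest one was also the highest distal peak of the locus, in a Peg3 intron, with 6.51, 8.32 and 6.47. All 5 peaks of the locus lay at or near the Peg3 and Usp29 start, and the Usp29 TSSs 217024 and 230582 bp from the 5′ end of that gene had none.

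In the Peg10-Sgce locus all 3 genes were marked. The retrotransposon-derived Peg10 and Sgce, which encodes epsilon-sarcoglycan, shared a peak of 6.12, 8.64 and 4.73 in the replicated, pool I and pool J lists. Ppp1r9a, encoding neurabin, a scaffold protein of dendritic spines, had 14.9, 13.9 and 12.99. It stood at percentile 87.2 of marked genes, while the shared start of Peg10 and Sgce was at percentile 30.2. The highest distal peak lay in a Ppp1r9a intron, 205 kb from the nearest TSS of that gene, with 5.96, 8.39 and 3.71.

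In the Peg13-Kcnk9 locus all 3 genes were marked and distal peaks were many. Peg13, a non-coding RNA from an intron of Trappc9, had a promoter peak of 13.05, 15.6 and 10.8 in the replicated, pool I and pool J lists, the highest of the non-coding genes. Trappc9, a trafficking complex gene, had 8.86, 10.2 and 7.24. Kcnk9, which encodes the potassium channel TASK3 and is maternally expressed in brain, had 5.66, 7.78 and 5.01, from 2 neighbouring peaks. The 18 distal peaks amounted to 3.21 per 100 kb, and 13 were found in both pool lists. Of the 18, 11 lay in Trappc9 outside Peg13 and 5 in Kcnk9. A further peak lay in a Peg13 exon, and thus also within Trappc9. The highest distal peak, in a Kcnk9 intron at chr15:72530539-72532224, had 7.96, 9.82 and 4.89.

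**Figure D2:**
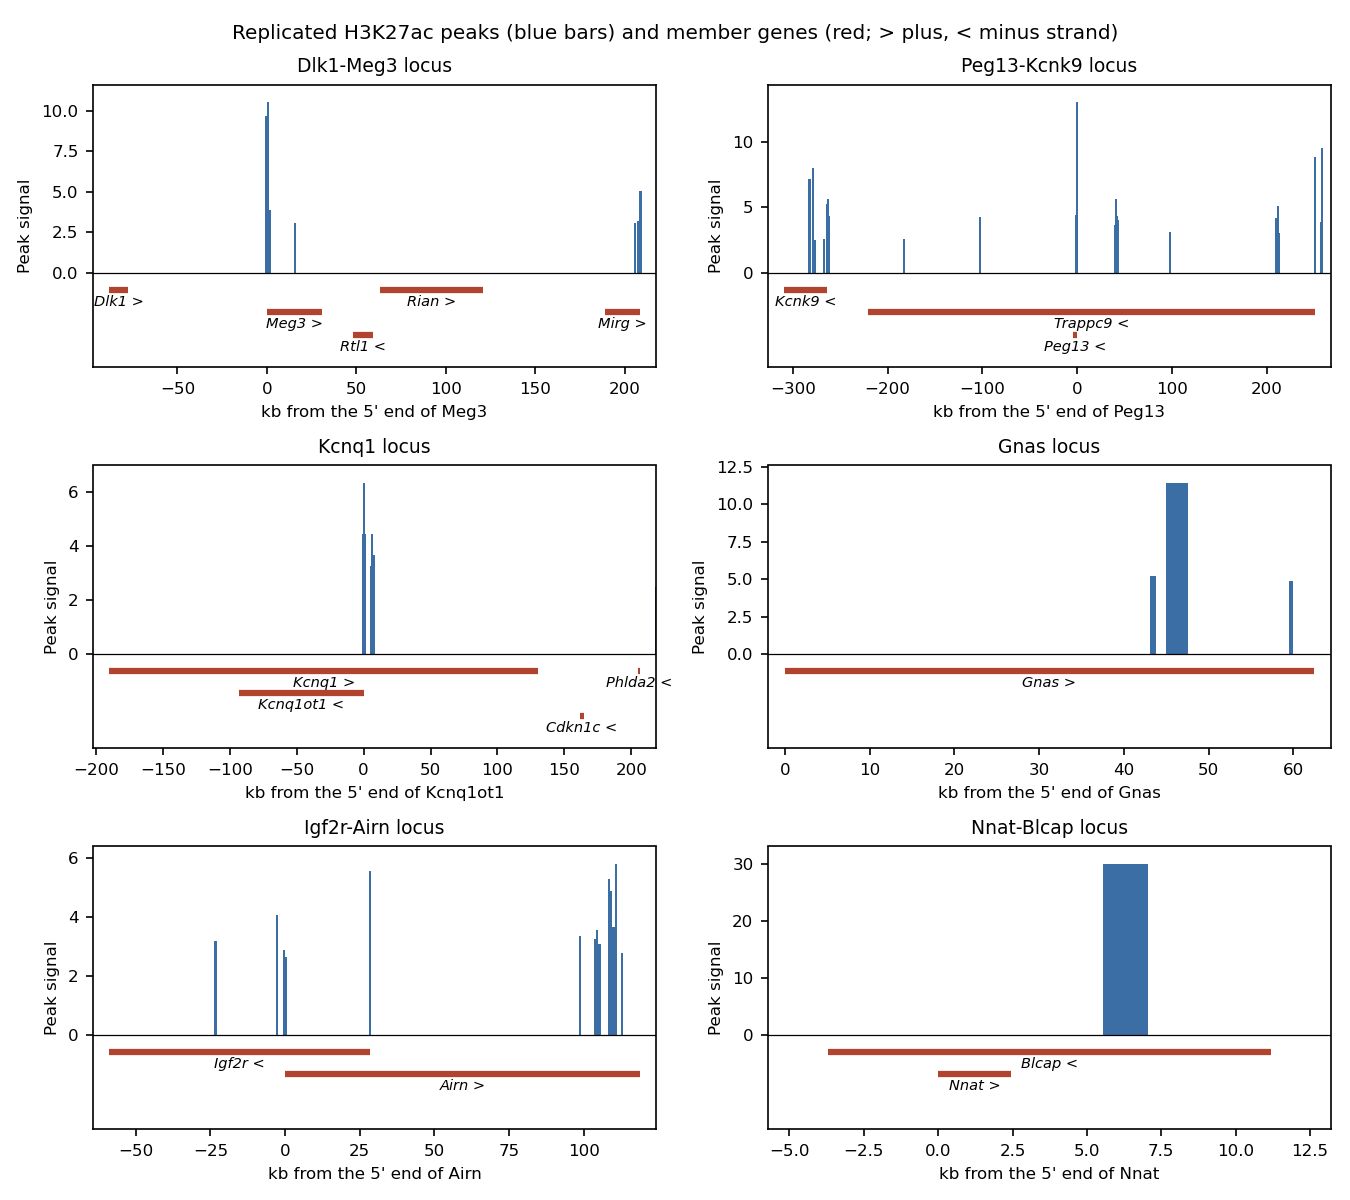
Replicated peaks (blue bars, height is peak signal, narrow peaks drawn at a minimum width) along 6 loci, with the genes of the set as red bars, plotted in kb from the 5′ end of the named gene. The Nnat-Blcap panel holds a single peak of 30.1, which lies away from the Nnat start, and in the Dlk1-Meg3 panel peaks stand at the Meg3 start and near the end of Mirg.

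In the Kcnq1 locus only the non-coding Kcnq1ot1, whose promoter lies in the control region inside Kcnq1, was marked. It had 3 promoter peaks, the highest with a signal of 6.36, 8.19 and 5.38 in the replicated, pool I and pool J lists, and in pool J only that 1 was found. The potassium channel gene Kcnq1, the cell cycle inhibitor gene Cdkn1c and Phlda2, a growth-restraining gene known from placenta, had none, at 36932 bp, 53341 bp and 11850 bp from the nearest peak. The 3 distal peaks had summits from 4.596 to 7.26 kb upstream of Kcnq1ot1, all in the body of Kcnq1, and the nearest was also in an exon of Gm37364. The highest had 4.47, 5.73 and 3.15.

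In the H19-Igf2 locus neither H19, a non-coding RNA, nor Igf2, the insulin-like growth factor gene, had a promoter peak. Their nearest peaks lay 6736 bp and 68527 bp away. The summits of the 4 distal peaks all lay between 7.32 and 10.5 kb upstream of H19. The highest distal peak, at chr7:142588485-142588939, had 5.36, 6.34 and 4.45 in the replicated, pool I and pool J lists. None of the 5 Igf2 TSSs was marked in any list.

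Grb10 and Ddc, neighbours on chromosome 11, were marked at internal starts. Grb10, an adaptor of insulin signalling that is paternally expressed in neurons from its own promoter, had a peak at the second of its 3 TSSs only. That peak had 6.86 in the replicated list, 6.34 in pool I and 6.31 in pool J, and its summit lay 1791 bp downstream of the TSS. The pool I list held 2 peaks over the same region, and the higher, of 8.25, lay outside the 1 kb window. Ddc, the decarboxylase of dopamine and serotonin synthesis, had 3.17, 4.09 and 3.20 near an internal TSS, and none at its 5′ end. The replicated peak of 3.17, matched by that of pool I, lay 995 bp from the internal TSS. The pool J value came from another peak, which matched a replicated peak of 2.09 at that TSS. The 1 distal peak of this locus had a signal of 2.11 and was found in neither pool list.

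In the Mest-Copg2 locus, Mest, a paternally expressed hydrolase gene, had a peak of 7.66, 10.2 and 5.19 in the replicated, pool I and pool J lists at its main start, and none at the TSS upstream of it. Copg2, a coat protein gene of vesicle transport on the other strand, had 11.2, 11.7 and 10.2. The Mest peak was 2359 bp wide and that of Copg2 830 bp. Of the 2 distal peaks of the locus, the higher had a signal of 2.57 and was in neither pool list.

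Gnas, which encodes the stimulatory G protein alpha subunit and has several promoters with different imprints, was marked at 2 of its 4 start regions. The main start had 11.5, 14.1 and 9.83 in the replicated, pool I and pool J lists, and the start known as exon 1A had 5.21, 6.89 and 5.74. The 2 upstream starts, of the Nesp and XL transcripts, had no peak in any list. The 1 distal peak of the locus, in an intron of Gnas, had 4.89, 6.49 and 3.97. Inpp5f, a phosphatase gene with an imprinted internal transcript, was marked at its 5′ end with 8.66, 10.6 and 7.98 and at the internal start with 7.76, 9.39 and 6.12. In each list the start known to be expressed from both copies in most tissues had the higher signal of the marked ones in both genes. The highest of the 5 distal peaks of Inpp5f, 3204 bp wide and in an intron, had 7.26, 9.005 and 6.68.

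Igf2r, the receptor that clears IGF2, had a promoter peak of 5.55, 6.14 and 5.96 in the replicated, pool I and pool J lists. Airn, the non-coding RNA antisense to it, had 2.87 in the replicated list, from a peak found in neither pool list. The pool I value of 2.67 came from a peak that matched a second, lower replicated peak of Airn. Pool J had none. The 10 distal peaks of this locus amounted to 5.63 per 100 kb, and 7 of them lay where Airn overlaps Mas1. The highest had 5.81, 6.87 and 3.61.

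Commd1, a copper metabolism gene, had 5.97, 6.45 and 4.76, while Zrsr1, a splicing factor retrogene in an intron of Commd1, had 12.3, 16.99 and 9.65. The retrogene thus carried the higher peak in each list. The highest of the 3 distal peaks of this locus had 3.37, 3.53 and 3.15. Plagl1, a growth-regulating zinc finger gene, had 4.07, 5.32 and 3.38. Zdbf2, a gene imprinted through a transcript from far upstream, had the lowest signal, 2.47, and its peak was in neither pool list.

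The marked genes nearest to the edge of the 1 kb window were Grb10 and Zdbf2, whose only peaks ended 739 bp and 505 bp from a TSS. The first gene outside it was Ndn with 1771 bp. Ddc and Airn each had a second, lower promoter peak that reached the TSS itself. In the curated RefSeq annotation, the Ndn start lies 1708 bp from the GENCODE one and the peak of 4.86 falls within its window, so that 28 of 41 genes were marked, with 24 of the coding ones. No other call differed, and 59.5% of all 20923 RefSeq coding genes were marked. RefSeq starts were chosen as an alternative after the data were seen.

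Over the 17 loci, which cover 6297 kb, the replicated list held 82 distal peaks, or 1.30 per 100 kb. The autosomes and the X chromosome together held 1.99. The Snrpn locus alone took up 3191 of the 6297 kb and held 22 of the 82 peaks, so the value of 1.30 depends heavily on it. The loci differed widely, and 6 lay above the genome value. Inpp5f had 5.88 per 100 kb from 5 peaks, and Igf2r-Airn, Impact, H19-Igf2, Commd1-Zrsr1 and Peg13-Kcnk9 were the others. The Nnat-Blcap, Plagl1 and Zdbf2 loci had none. Of the 82, 60 lay in introns, 7 in exons and 15 between genes. Both pool lists held 46 of them (56.1%), beside 46.2% of all distal peaks. Their median signal was 3.92 and their median width 444 bp, beside 3.37 and 528 bp over all distal peaks. Several loci are short, so 1 peak moves their value a great deal.

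**Figure D3:**
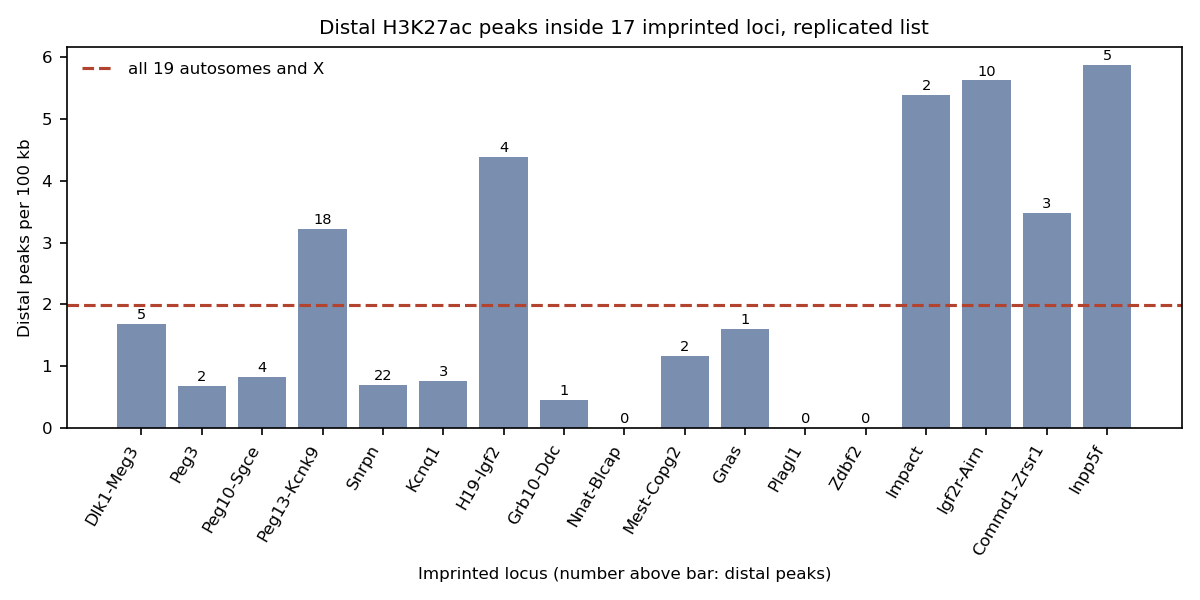
Distal peaks per 100 kb (vertical axis) inside each of the 17 loci in the replicated list, with the number of peaks above each bar and the value of all 19 autosomes and X as a dashed line at 1.99. The long Snrpn locus, with 22 peaks, stands at 0.689, and the 6 loci above the line hold 2 to 18 peaks.

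CpG content of the starts was compared with the mark. A start was called CpG-rich where the observed number of CpGs over the number expected from base composition was at least 0.6 in the 250 bp on either side of any TSS. Of 26 CpG-rich coding genes of the set, 18 were marked (69.2%), where 88.7% of all 12032 CpG-rich coding genes were. Of 8 CpG-poor ones 5 were marked (62.5%), where 21.0% of all 9723 were. The 5 include Peg3 and Usp29, which share a peak, with ratios of 0.53 and 0.57. The others were Trappc9 with 0.59, Ddc with 0.36 and Impact. The 8 CpG-rich genes without a promoter peak were Dlk1, Zim1, Mkrn3, Kcnq1, Cdkn1c, Phlda2, Igf2 and Nnat. Among the marked genes Impact had a low ratio of 0.31 and Grb10 the highest, 1.06. These ratios are those at the TSS. Within 150 bp of the Impact peak summit, which lies downstream of the TSS, the ratio was 0.84. The CpG-poor class holds 8 genes, and no test was made of these shares.

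**Figure D4:**
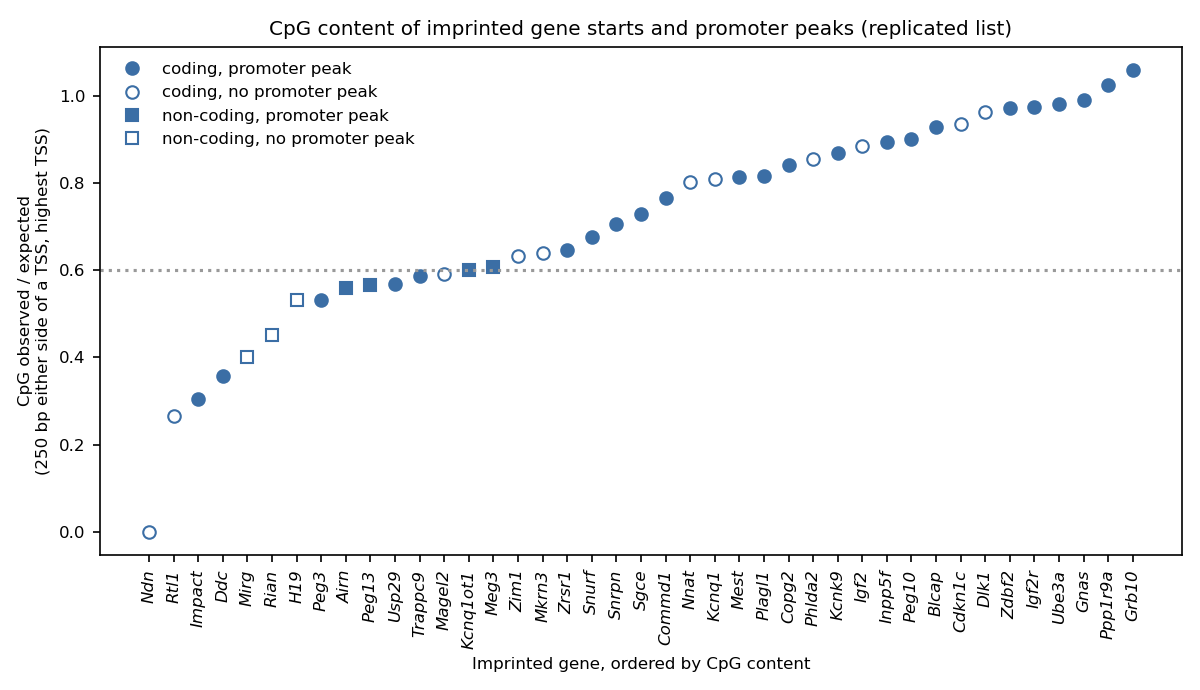
CpG observed over expected (vertical axis, the highest over a gene's TSSs) for the 41 genes in rising order, with filled marks for a promoter peak and open marks for none, circles for coding and squares for non-coding genes. Open circles appear on both sides of the dotted line at 0.6, with 8 of them above it.

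TGCCGC and its reverse complement were counted on both strands within 150 bp of each peak summit. A match was present at 16 of the 39 promoter peaks of the set (41.03%), where 20.1% of all 19727 promoter peaks had one. Over whole peaks 22 of 39 had one (56.4%), beside 38.4%. Of the 24 peaks of genes at maternally methylated germline control regions 12 had a match near the summit, and of the other 15 peaks 4 had. Whole peaks held 2.24 matches per kb in the former, 0.735 in the latter and 0.536 over all promoter peaks. The largest numbers were 12 in the Mest peak, 10 in the Snrpn and Snurf peak, and 6 each in Peg13 and at the internal Inpp5f promoter. The printed stretches of Mest, Snrpn and Snurf, and Inpp5f come from these peaks. These control regions are known targets of ZFP57, so the hexamer there is a property of the chosen genes, and a match is not a bound site. The YY1 core AANATGGC, counted likewise on both strands, was found near none of the 39 summits, beside 6.15% of all promoter peaks, and in 7 whole peaks (17.9%), beside 17.5%.

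Of 39 further imprinted genes found in the annotation, 20 had a promoter peak (51.3%), where 58.5% of all coding genes did. The few non-coding genes among the 39 had none, where 25.9% of all long non-coding genes had one. The highest of the 39 were Bcl2l1, an apoptosis inhibitor gene, with 21.2, Chrac1, a chromatin accessibility complex gene, with 16.0, and Ago2, an Argonaute gene, with 14.8. Ascl2, a placental transcription factor gene, Asb4 and Calcr, the calcitonin receptor gene, had none. Of 18 genes that set or keep imprints, 14 had a promoter peak (77.8%), beside the same 58.5%. Trim28, the corepressor recruited by ZFP57, had 19.4, Eed, a Polycomb subunit gene, 19.01 and Ctcf, the insulator protein gene, 18.0. The methyltransferase gene Dnmt3b, its germline cofactor Dnmt3l and Dppa3, known from oocytes, had none. Zfp57 itself had 3.58.

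The tissue label was checked on marker genes. The cortical excitatory neuron markers Camk2a, Slc17a7, Neurod2, Tbr1 and Neurod6 had promoter peaks with signals of 14.03, 13.05, 12.6, 10.98 and 10.8, and none of the 5 choroid plexus or 4 liver markers had one. Of the 5 meningeal fibroblast markers Foxc1 alone was marked, with 2.77, and of the 4 pericyte markers Pdgfrb alone, with 4.87. The lists are from whole tissue, so fewer cells of a type with the mark and less mark per cell cannot be told apart.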

How the data were processed

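H3K27ac ChIP-seq of 4 samples was deposited as 4 peak lists on mm10: a replicated and a pseudoreplicated list of both pools and 1 pseudoreplicated list per pool, per the file headers and labels. The 2 libraries of a pool share 1 alignment, so values exist per pool. Each deposited signal value comes from the authors' peak caller, and −log10 q is the authors' significance value, while the deposited score column was not used. The aligner was not given in the sources used here, nor were peak caller and normalization. The depth is unknown, so no counting interval was made. Reads of the CAST/EiJ copy differ from the reference where the strains differ, so fewer of them may have been counted.

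The members and all lists were chosen with earlier results of these data known. The text names all 41 genes by locus, the highest distal peak of each locus that has one, and of the further imprinted genes and of the genes that set or keep imprints the 3 highest and up to 3 unmarked in alphabetical order; Zfp57 was named after its value was seen. TSSs came from the GENCODE vM21 basic annotation on 19 autosomes and X. TSSs under 500 bp apart were taken as 1 start region. A peak with no such TSS within 1000 bp was distal, a locus ran from the lowest start to the highest end of its genes, and an overlap of 1 bp matched the peaks of 2 lists. A pool value is the highest peak of that list in the window. Percentiles are ranks within a list. Results are descriptions with no test. Promoter calling was tested on simulated peaks. Python 3.11.15, NumPy 2.4.6 and samtools 1.23.1 were used. A marker of the tissue check is not reported here.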

Additional observations from a re-analysis of the deposited data

How the results depend on the processing

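No paired analysis was possible because the results come from no test and the peak lists give values per pool, not per library. Distal peaks numbered 82, but 51 at a −log10 q of at least 5 and 53 between the outermost TSSs of each locus. The ZFP57 hexamer was near 16 summits within 150 bp and 9 within 50 bp, where the shares were 23.1% of the set and 6.94% of all promoter peaks. Leaving out a pool gave 22 coding genes either way, 3 to 4 non-coding genes and 56 to 79 distal peaks. The median percentile ran from 45.8 to 56.4, and 15 to 16 genes at germline control regions were marked. The pool J and pool I lists hold 49839 and 69834 peaks, beside 72027 in the replicated list. Distal peaks of the whole genome were not counted for any of these alternatives, so the changed distal counts have no background. At a −log10 q of at least 5, 21 coding and 3 non-coding genes were marked, beside 54.8% and 21.9% of all genes, and Ddc, Zdbf2 and Airn were lost. The 5′ end of the gene alone gave 17 coding genes, losing Snrpn, Grb10, Ddc, Blcap, Gnas and Plagl1. The share of all coding genes at the 5′ end alone was not computed, so that count has no background. CpG thresholds of 0.5 and 0.75, added after seeing the data, left 21 of 30 and 14 of 20 CpG-rich coding genes marked, beside 86% and 92.2% of all such genes, and 2 of 4 and 9 of 14 CpG-poor ones, beside 15.2% and 34.7%. The unknown depth limits every absent call.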
